A study of Mus musculus with 18 samples.

Results

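The Fam19a genes encode a small family of secreted, chemokine-like proteins made mainly in the nervous system, and were followed here in sorted cells of the mouse main olfactory epithelium. The family has 5 members, Fam19a1 to Fam19a5, which are now also called Tafa1 to Tafa5. They were found by symbol in the deposited expression table, and these 5 genes are among 23359 symbols. The family was selected on 1 measured value: Fam19a4 was chosen by its higher level in reporter-positive cells. The difference between reporter-positive and reporter-negative cells is therefore given for Fam19a4 as a description, with no test. The other 4 members entered by name alone.

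RNA-seq was carried out on olfactory sensory neurons (OSNs) that express trace amine-associated receptors (TAARs) and on the remaining cells of the same tissue. In Taar5-ires-Cre knock-in mice carrying L10-GFP (TAAR5-Cre&L10-GFP in the labels, strain C57BL/6, postnatal day 11 to 14), 7 libraries of GFP-positive cells (Taar5+) and 9 of GFP-negative cells (control) were made. In Taar6-ires-Cre mice carrying ZsGreen (TAAR6-Cre&ZsGreen, strain C57BL/6, postnatal day 16 to 17), there was 1 library of ZsGreen-positive cells (Taar6+) and 1 of ZsGreen-negative cells. Line, reporter and age differ together between these pairs of groups and cannot be told apart. Strain and age are those of the labels. The study's reporting summary gives a mixed strain background and an older age range for these lines. Cre was made from the Taar5 or Taar6 transcript, so the reporter also marks any cell that once used that gene, and the GFP-negative cells are a mixture in which OSNs with odorant receptors (ORs) prevail. How many animals went into a library is not given in the sources used here, so the spread between libraries may be partly technical.

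Fam19a proteins are short, cysteine-rich and secreted, and are distantly related to chemokines. They bind neurexins, the presynaptic adhesion molecules, and several G protein-coupled receptors have been proposed as their receptors. Fam19a4 is best known as a marker of C-low-threshold mechanoreceptors (C-LTMRs), the touch neurons of hairy skin, where its product dampens pain after injury. In a sorted population, a higher level per cell and a larger share of expressing cells cannot be told apart.

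In the GENCODE M21 annotation of GRCm38, the assembly also called mm10, Fam19a4 lies on chromosome 6 from 96831203 to 97060413 on the minus strand. Fam19a1 lies on the same chromosome from 96113154 to 96657198 on the plus strand. Both genes have most of their length in introns, with up to 6 exons in a Fam19a4 transcript and up to 5 in a Fam19a1 transcript. Fam19a2 is on chromosome 10 (123263996 to 123741204, plus strand), Fam19a3 on chromosome 3 (104767406 to 104781840, minus strand) and Fam19a5 on chromosome 15 (87544299 to 87759364, plus strand). Of the 50-base words in their transcripts, 0% were shared with another gene for Fam19a1, Fam19a2, Fam19a4 and Fam19a5 and 5.19% for Fam19a3. An exon of Fam19a3 is overlapped by Gm43584 and Ppm1j. No annotated gene overlaps the body of Fam19a4 or Fam19a5, so reads of these 2 members could not be taken for those of an overlapping gene.

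The 250 bases before the RefSeq start of Fam19a4 and Fam19a1 (GRCm38.p6) are shown because these are the neighbouring pair of the family, of which 1 member was abundant in the sorted cells and the other close to 0. Capitals mark CCAAT, searched on both strands. The stretches are chr6:97060412-97060661 on the minus strand and chr6:96112904-96113153 on the plus strand, written 5′ to 3′.
Fam19a4: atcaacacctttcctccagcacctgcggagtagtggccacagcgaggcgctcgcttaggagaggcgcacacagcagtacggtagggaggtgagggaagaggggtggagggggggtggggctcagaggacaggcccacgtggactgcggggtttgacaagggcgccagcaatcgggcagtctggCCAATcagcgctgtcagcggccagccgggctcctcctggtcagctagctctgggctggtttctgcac
Fam19a1: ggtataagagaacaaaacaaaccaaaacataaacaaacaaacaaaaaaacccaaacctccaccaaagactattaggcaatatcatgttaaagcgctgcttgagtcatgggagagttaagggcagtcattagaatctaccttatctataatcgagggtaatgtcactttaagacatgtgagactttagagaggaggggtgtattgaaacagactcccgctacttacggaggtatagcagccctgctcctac

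The Fam19a4 stretch holds 1 CCAAT box and 13 CG pairs and is 65.2% G and C. The Fam19a1 stretch holds 0 CCAAT boxes and 4 CG pairs and is 40.8% G and C. Over the 32851 promoter stretches of the same length in the RefSeq table, 33.8% held CCAAT and the median G and C content was 52.4%. Neither stretch held TATAAA (12.4% of all stretches), GGGCGG (32.7%), the Ebf core CCCNNGGG (11.8%) or the Lhx2 core TAATTA (4.84%). All 5 motifs were searched on both strands. No binding or chromatin measurement was made here, so a match or its absence is a description of these letters.

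Fam19a4 was the member that the sorted TAAR OSNs expressed. Its level in the 7 Taar5+ libraries was 140, 171, 181, 211, 43.5, 121 and 244 TPM (a length-corrected share of all transcripts in the library) in replicates 1 to 7. In the controls it was 11.1, 22.0, 25.5, 18.3, 16.8, 15.6 and 21.4 TPM in replicates 1, 3, 4, 5, 6, 7 and 9, and it was listed at 0 in replicates 2 and 8. The groups did not overlap: the lowest Taar5+ library, replicate 5, lay 1.70-fold above the highest control, replicate 4. The 7 Taar5+ libraries averaged 159 ± 65.4 TPM (SD), the 9 controls averaged 14.5 ± 9.21 TPM (SD), and the ratio of the medians was 10.2. On the scale of log2(TPM + 1), which understates the change of low values, Fam19a4 was higher in Taar5+ cells by 3.85 (SE 0.71). Every Taar5+ library was above every control for 13 of the 12502 genes that passed the filter on low values, or 0.104%. The rule used this contrast, so nothing is read from that share.

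**Figure D1:**
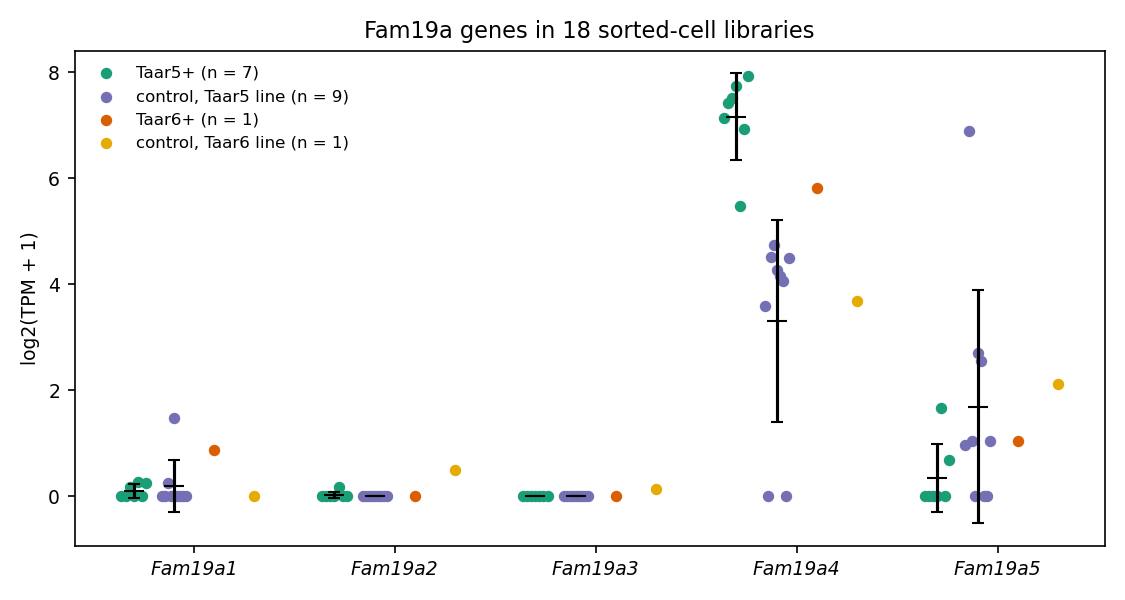
Level of each Fam19a gene as log2(TPM + 1), with 1 point per library, colours for the 4 groups and black bars for mean ± SD of the groups with replicates. Fam19a4 sits between 43.5 and 244 TPM in the 7 Taar5+ libraries and at 0 to 25.5 TPM in the 9 controls. The other members lie at 0 to 5.52 TPM, apart from Fam19a5 in 1 control at 117 TPM.

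By mean TPM it ranked 1094 of 23359 genes in Taar5+ cells and 7199 in controls. Omp, a general marker of mature OSNs, averaged 14669 ± 3606 TPM over the 7 Taar5+ libraries and 12131 ± 4982 TPM over the 9 controls (SD). The other 4 markers on the mature OSN list did not all move with Omp, whose own difference did not pass the threshold (log2 difference 0.38, adjusted p = 0.934 in limma). Stoml3, a membrane protein of olfactory cilia, fell by 1.42 on the log2 scale (SE 0.24, adjusted p = 0.00994 in limma). The log2 differences of Cnga4 (-0.53), Cngb1 (0.38) and Ric8b (0.43) did not pass. Fam19a4 came to 0.408% to 2.46% of Omp in Taar5+ libraries and to 0% to 0.464% in controls, so these ratios overlapped between Taar5+ replicate 5 and control replicate 4. Leaving out single libraries kept the log2 difference between 3.44 and 4.13, with the smallest value without control replicate 2 or 8.

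The 2 controls in which Fam19a4 was listed at 0 differed in kind. A 0 in this table can be a failed estimate. Among genes with a median of 10 to 30 TPM in the other controls, 12.7% were listed at 0 in control replicate 8 and 62.8% in control replicate 2. That share ran from 0.0932% to 13.2% in the other 7 controls. The mean of these 7 was 18.7 ± 4.77 TPM (SD, n = 7) for Fam19a4. Control replicate 2 had 5891 genes above 0, against 11259 to 16888 in the other controls and 9784 to 17653 in Taar5+ libraries, and stood apart in this respect.

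Within the Taar5+ group, the spread of Fam19a4 was set beside the totals of both receptor families. In the 7 Taar5+ libraries the summed Taar TPM ran from 1517 in replicate 5 to 7804 in replicate 7, which were also the libraries with the lowest and highest Fam19a4. The correlation of the log2 values was positive (Pearson r = 0.93, exact permutation p = 0.0248, adjusted over 3 relations p = 0.0372, n = 7), while Spearman's rho was 0.64 (exact permutation p = 0.139, adjusted p = 0.208). Without replicates 5 and 7, the farthest from the median, r was 0.048 (exact permutation p = 0.942, n = 5), so the relation rests on those 2 libraries. The summed Olfr TPM, from 225 to 5525, showed the opposite sign (r = -0.88, exact permutation p = 0.00694, adjusted p = 0.0208; rho = -0.75, exact permutation p = 0.0663, adjusted p = 0.199, n = 7). Without replicates 5 and 1 this r was -0.67 (exact permutation p = 0.192, adjusted p = 0.287, n = 5), which kept its sign but did not pass, with 120 pairings possible among 5 libraries. Replicate 5, which was low for Fam19a4 and for Taar and high for Olfr, also had the highest sum of its group for the markers of every other cell type listed outside the OSNs. These were 181 TPM for horizontal basal markers (others 0 to 17.5), 7417 TPM for sustentacular markers (others 61.4 to 1755) and 88.7 TPM for progenitor markers (others 0.628 to 12.5). They were 175 TPM for microvillar markers (others 0.266 to 38.7) and 300 TPM for blood and immune markers (others 0 to 74.3). The part of those cells in the Fam19a4 value was not tested. Fam19a4 was chosen for its higher level in reporter-positive cells, so its relations to both receptor totals are not independent of that choice.

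**Figure D2:**
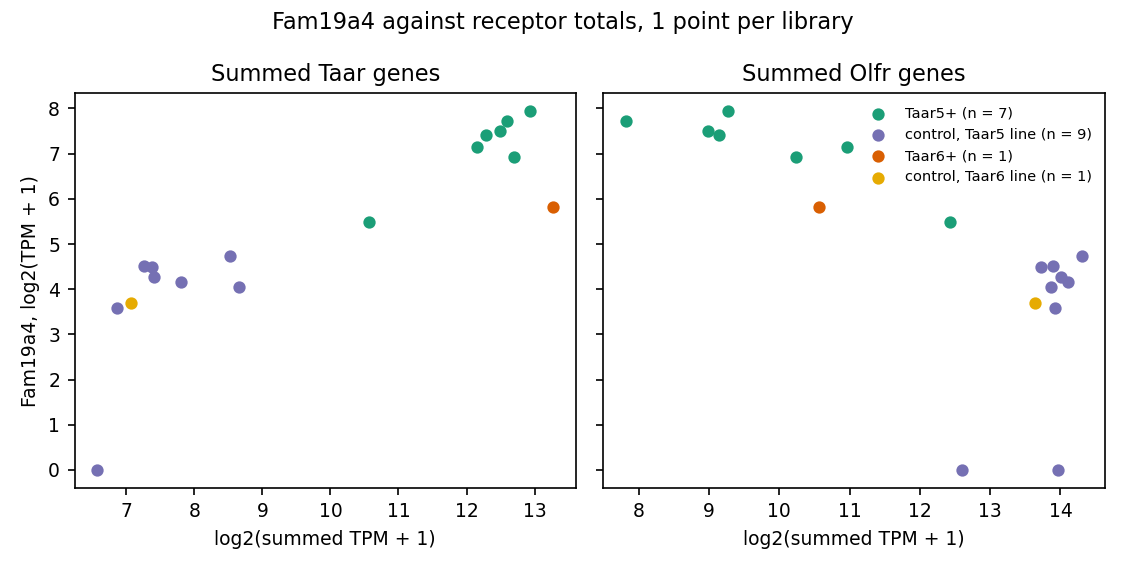
Fam19a4 against the summed Taar genes (left) and the summed Olfr genes (right), all as log2(TPM + 1), with 1 point per library. The left panel omits control replicate 2, whose Taar values copy those of replicate 1. Among the 7 Taar5+ libraries, replicate 5 lies apart at 43.5 TPM of Fam19a4.

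Set against the Taar total, Fam19a4 in Taar5+ libraries amounted to 2.98% ± 0.54 (SD, n = 7) of the summed Taar TPM, from 1.83% in replicate 6 to 3.41% in replicate 2, and was 2.87% in replicate 5. In controls the same ratio was 8.27% ± 4.76 (SD, n = 8), from 0% in replicate 8 to 14.4% in replicate 3. Over these 15 libraries the mean of the Taar total was 25.3-fold higher in Taar5+ cells and that of Fam19a4 was 9.73-fold higher. In 8 controls, Fam19a4 and the Taar total were not correlated beyond the spread (r = 0.59, exact permutation p = 0.107, adjusted p = 0.107; rho = 0.40, exact permutation p = 0.327, adjusted p = 0.327). Without the 2 controls farthest from the median, replicates 7 and 4, r was 0.77 (exact permutation p = 0.0333, adjusted p = 0.1, n = 6). Spearman's rho was then 0.43 (exact permutation p = 0.419, adjusted p = 0.775). Control replicate 8, with Fam19a4 listed at 0 and the lowest Taar total of these controls (94.5 TPM), is among those kept.

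**Figure D3:**
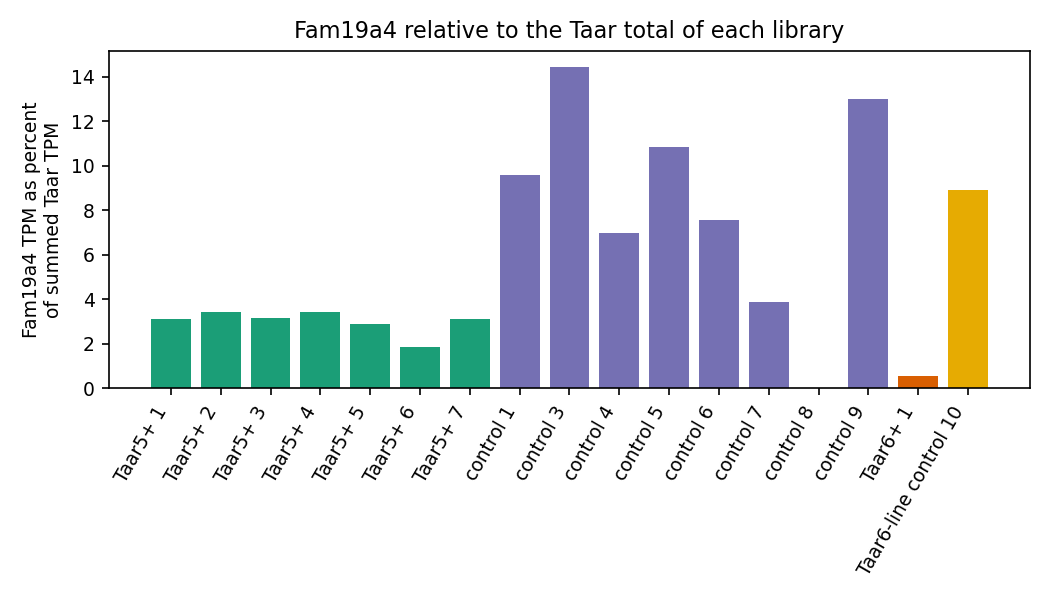
Fam19a4 TPM as a percent of the summed Taar TPM in each library, coloured by group, without control replicate 2. The Taar5+ bars span 1.83% to 3.41%, the controls of that line 0% to 14.4%, the Taar6+ library stands at 0.562% and its control at 8.88%.

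In the Taar6 line, where there are no replicates and no test, the level of Fam19a4 was 55.6 TPM for Taar6+ and 11.9 TPM for its control, a ratio of 4.67. The difference was 2.13 on the log2(TPM + 1) scale. Of the 12502 genes, 2.83% were higher in Taar6+ cells by at least 1 on that scale. Taar6+ cells are reporter-positive and so fall under the rule that chose Fam19a4, and nothing is read from that share. The Taar6+ value lay between the lowest and the second lowest Taar5+ library, although its Taar total was 9894 TPM, above all 7 of them. Fam19a4 was thus 0.562% of the Taar total in Taar6+ cells, below every Taar5+ library, and 8.88% in the control of that line, within the range of the other controls. With 1 library the difference between the lines was not tested.

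Fam19a5, a member also made in the brain, was low in the sorted neurons and high in 1 control. In Taar5+ cells it was listed at 0 in 5 libraries and reached 2.18 TPM in replicate 5 and 0.608 TPM in replicate 7. In controls it was 0.964, 117, 1.05, 5.52, 4.85 and 1.07 TPM in replicates 1, 2, 3, 5, 6 and 9 and was listed at 0 in replicates 4, 7 and 8. The groups overlapped. Only 6 of the 16 libraries reached 1 TPM, so Fam19a5 was below the filter and was taken from the fit of all 19192 genes above 0. There it differed by -1.35 on the log2 scale (SE 0.82, 95% interval -3.08 to 0.37, adjusted p = 0.897 in limma), which did not pass the threshold of 0.05. In that fit 0.0886% of genes passed. Without control replicate 2 the mean of the controls fell from 14.5 ± 38.6 TPM (SD, n = 9) to 1.68 ± 2.22 TPM (SD, n = 8) and the log2 difference was -0.70.

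The 2 libraries with the highest Fam19a5 of their group were also those with the most sustentacular RNA. The 4 markers of these supporting cells (Cyp2g1, Cyp1a2, Ermn and Sult1c1) summed to 9078 TPM in control replicate 2, against 28.7 to 721 TPM in the other controls, and to 7417 TPM in Taar5+ replicate 5. In Taar5+ replicate 5 the markers of the other non-neuronal cells were high as well, as given above. In control replicate 2 the 3 horizontal basal markers and the 4 progenitor markers were all at 0. Of the ensheathing glia markers in that control, Sox10 was at 31.1 TPM and Fabp7 and S100b were listed at 0. There the blood and immune list summed to 152 TPM (others 51.9 to 574), the microvillar list to 13.2 TPM (others 12.6 to 608), the immature OSN list to 1361 TPM (others 299 to 2980) and the mature OSN list to 13054 TPM (others 19921 to 45101). The part of any of these cells in the Fam19a5 value was not tested.

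The remaining members were close to 0. Fam19a1 was above 0 in 3 Taar5+ libraries (0.132 TPM in replicate 3, 0.208 in replicate 5 and 0.182 in replicate 7) and in 2 controls (0.182 TPM in replicate 3 and 1.76 TPM in replicate 5). Its groups overlapped and its difference did not pass the threshold (log2 difference -0.09, SE 0.18, 95% interval -0.47 to 0.29, adjusted p = 0.929 in limma without the filter). Fam19a2 was listed at 0 in 15 of these 16 libraries and at 0.12 TPM in Taar5+ replicate 5 (log2 difference 0.02, 95% interval -0.05 to 0.09, adjusted p = 0.905 in limma without the filter). Fam19a3 was listed at 0 in all 16. In the Taar6 line, Fam19a1 was at 0.833 TPM in Taar6+ cells and listed at 0 in the control, whereas Fam19a2 (0.399 TPM) and Fam19a3 (0.0958 TPM) were above 0 in the control and listed at 0 in Taar6+ cells. Fam19a5 stood at 1.06 TPM for Taar6+ and 3.36 TPM for its control.

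TPM are corrected for length, so the levels of the members can be ranked. In Taar5+ cells Fam19a4 came first, followed by Fam19a5 (0.399 ± 0.819 TPM), Fam19a1 (0.0744 ± 0.0955 TPM) and Fam19a2 (0.0172 ± 0.0454 TPM; SD, n = 7 each). The last 3 did not differ beyond their spread. Fam19a4 made up 99.2% ± 2.04 (SD, n = 7) of the family's summed TPM there. In controls the medians were 16.8 TPM for Fam19a4, 1.05 TPM for Fam19a5 and 0 TPM for the others. Fam19a4 took 71.5% to 100% of the family in 7 controls, 0% in control replicate 2, where Fam19a5 was the 1 member above 0, and had no share in control replicate 8, where all 5 were listed at 0. The mean TPM of Fam19a4 and Fam19a5 in controls were nearly equal (14.5 each), which rests on control replicate 2.

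Next, the genes of the proteins that Fam19a proteins are known or proposed to bind were examined. In all, 21 of the 12502 genes (0.168%) had an adjusted p under 0.05 in limma, and 881 had an unadjusted p under 0.05. The median log2 difference of all genes was 0.02. Of the 6 neurexin and neuroligin genes, 2 passed the filter, 0 were called and 0 had an unadjusted p under 0.05. Nlgn3, a postsynaptic ligand of neurexins, averaged 26.8 ± 16.9 TPM in Taar5+ cells and 20.7 ± 10.3 TPM in controls (SD, n = 7 and 9; log2 difference 0.04, SE 0.71, adjusted p = 0.996 in limma). Nrxn2 was at 0 to 1.96 TPM and Nrxn3 at 0 to 0.269 TPM in Taar5+ libraries.

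Proposed receptors were scarce in the Taar5 line. Of Fpr1, Fpr2, Lrp1, Gpr1, S1pr2 and Ccr2, 1 passed the filter, S1pr2, a receptor for sphingosine 1-phosphate, at 0 to 6.37 TPM in Taar5+ libraries and 0 to 5.11 TPM in controls, with a log2 difference of 0.07 (SE 0.57, adjusted p = 0.993 in limma). It was not called and had an unadjusted p of 0.91. Lrp1, an endocytic receptor, ran from 0 to 2.60 TPM in Taar5+ cells and from 0 to 1.23 TPM in controls. The 6 genes together summed to 0 to 9.01 TPM in Taar5+ libraries and 0 to 9.89 TPM in controls.

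Among the classical chemokines and their receptors, 7 of 8 listed genes were in the table, 6 passed the filter, 0 were called and 2 had an unadjusted p under 0.05. The median of their log2 differences was -1.46, and 1 of the 6, that of Cx3cl1, was above 0. Ccl4, a chemokine of activated myeloid cells, was at 0 to 15.2 TPM in Taar5+ libraries and 0 to 112 TPM in controls (log2 difference -2.96, SE 1.07, adjusted p = 0.420 in limma). Ccl3, its close relative, was at 0 to 20.8 and 0 to 83.9 TPM (log2 difference -2.06, SE 1.06, adjusted p = 0.780 in limma). Without Taar5+ replicate 5 and control replicate 2, an alternative chosen after the data were seen, 1 of the list was called: Cxcl12, a chemokine that guides migrating cells (log2 difference -2.72, SE 0.65, adjusted p = 0.0276 in limma), against -2.51 (SE 0.83, adjusted p = 0.334) in all 16 libraries. Under that alternative 337 of 11915 genes (2.83%) were called. The chemokine list summed to 3.97 to 94.2 TPM in Taar5+ libraries and 30.1 to 224 TPM in controls. The blood and immune markers summed to 0 to 300 TPM in Taar5+ libraries and 51.9 to 574 TPM in controls. In the Taar6 line, with 1 library each, both sums were higher in the reporter-positive cells. For Taar6+ and its control they were 195 and 135 TPM (chemokine list) and 729 and 139 TPM (blood and immune markers). The part of blood and immune cells in the chemokine values was not tested.

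Of the genes that mark C-LTMRs together with Fam19a4, 4 of 6 were at or near 0 in Taar5+ cells and in controls. Th, the enzyme that makes L-DOPA, and Slc17a8, a vesicular glutamate transporter, were listed at 0 in all 7 Taar5+ libraries. Gfra2 did not exceed 1.36 TPM and P2ry1 2.62 TPM in any Taar5+ library. The highest control values were 2.76 TPM for Th, 0 TPM for Slc17a8, 0.851 TPM for Gfra2 and 1.45 TPM for P2ry1. Of the 6 genes, 2 passed the filter, 0 were called and 0 had an unadjusted p under 0.05. Cacna1h, a T-type calcium channel, averaged 36.3 ± 15.4 TPM in Taar5+ cells and 34.7 ± 19.9 TPM in controls (SD, n = 7 and 9), a log2 difference of 0.45 (SE 0.68, adjusted p = 0.968 in limma). Runx1, a transcription factor of sensory neurons, was at 0 to 9.13 TPM and 0 to 6.33 TPM (log2 difference -0.62, SE 0.55, adjusted p = 0.947 in limma). The 6 genes together summed to at most 57.5 TPM in Taar5+ libraries and 71.1 TPM in controls. In the Taar6 line, with 1 library each, their sums were higher, at 243 TPM for Taar6+ and 247 TPM for its control.

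The genes around Fam19a4 were compared as well. Of the 9 genes in the table with a body within 1000000 bases of it, 6 passed the filter, 0 were called and 0 had an unadjusted p under 0.05, with a median log2 difference of 0.09. Arl6ip5, an endoplasmic reticulum protein whose start lies 150 kb away, averaged 237 ± 59.8 TPM in Taar5+ cells and 233 ± 87.1 TPM in controls (SD, n = 7 and 9), a log2 difference of 0.06 (SE 0.25, adjusted p = 0.983 in limma). Uba3, a subunit of the enzyme that activates NEDD8, had 53.1 ± 27.7 and 60.4 ± 19.7 TPM (log2 difference -0.24, SE 0.31, adjusted p = 0.958 in limma). Eogt, a glycosyltransferase with the nearest start at 88.8 kb and named after its values were seen, had 15.7 ± 8.64 and 6.90 ± 7.95 TPM (log2 difference 1.54, SE 0.79, adjusted p = 0.773 in limma). The neighbour Fam19a1 was near 0, as given above.

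**Figure D4:**
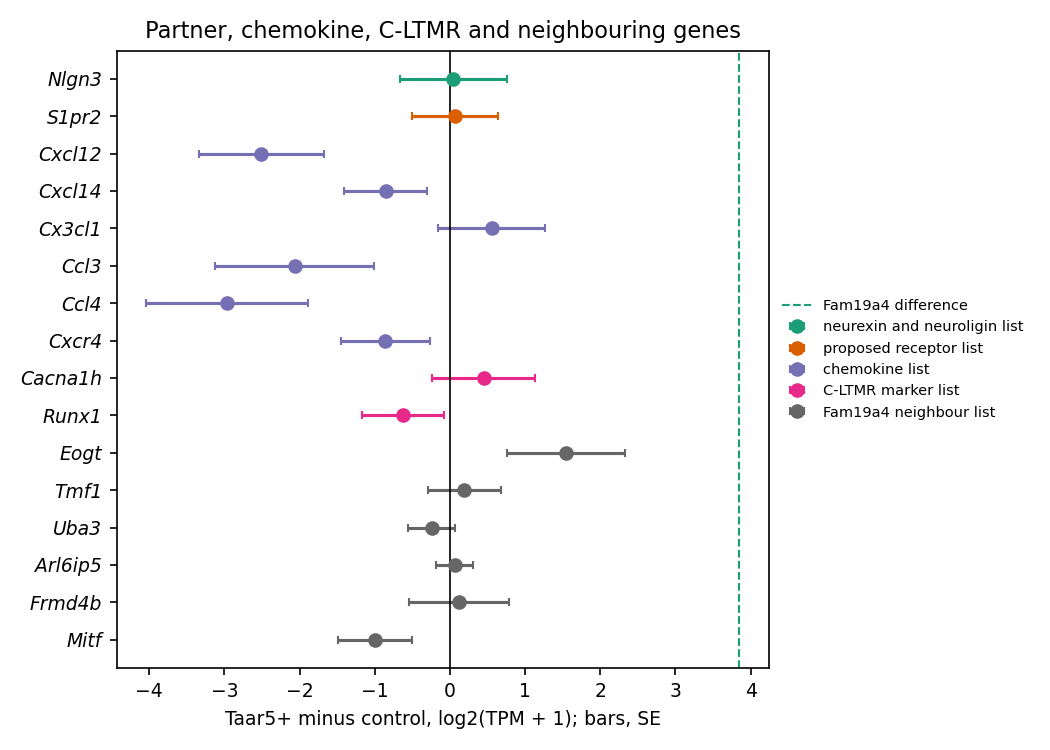
Log2 difference of mean log2(TPM + 1), Taar5+ minus control, for tested genes of the partner, receptor, chemokine, C-LTMR and neighbour lists, without 1 partner gene that is not reported, with bars for the SE of the limma fit over 7 and 9 libraries and colours for the lists. The dashed line marks the Fam19a4 difference of 3.85, on which that gene was chosen. Ccl4 lies lowest at -2.96 and Eogt highest at 1.54.

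Finally, the genes with the pattern most like each member were taken by the root-mean-square difference, over the 16 libraries, between log2(TPM + 1) values centred on the mean of each gene. For Fam19a4 the 5 nearest were 4732456N10Rik (0.90), Nov (0.93), Pdgfa (1.13), Taar8a (1.20, over the 15 libraries with its own values) and Fhl1 (1.21), against a median of 2.47 over all genes that passed the filter. Nov, a secreted matricellular protein, had 125 TPM on average in Taar5+ cells, from 52.3 to 194 TPM, and at most 59.7 TPM in controls. Pdgfa, a secreted growth factor, was at 45.5 to 104 TPM in Taar5+ libraries and at most 52.2 TPM in controls. Taar8a, an olfactory amine receptor, was at 7.24 to 54.7 TPM in Taar5+ libraries and at most 9.36 TPM in controls. The groups overlapped for all 5. Each was higher on average in Taar5+ cells, with the smallest log2 difference at 2.06 for Pdgfa. Fam19a4 was chosen on that contrast, so its nearest genes are not independent of the choice. Fam19a4, 4732456N10Rik, Nov, Pdgfa and Fhl1 were also all listed at 0 in control replicate 2. There 62.8% of genes with a median of 10 to 30 TPM in the other controls were at 0. Whether the 5 nearest genes are regulated together with Fam19a4 was not tested. For Fam19a5 the nearest were Icam1 (0.65), Ptgdr (0.68), Appl2 (0.85), Tnfaip8 (0.86) and Ttc39a (0.86), against a median of 2.30. Each of these 5 had its highest value of all controls in control replicate 2, at 60.9 to 191 TPM, so the likeness rests on that library.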

How the data were processed

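Libraries of sorted cells were made by the Smart-seq2 protocol, in which cDNA is amplified by PCR and carries no molecular identifiers. Per the paper's methods and the submitters' processing notes, the authors trimmed reads with Trimmomatic 0.36, mapped them to mm10 with HISAT2 2.1.0 and quantified them with Cufflinks 2.2.1, and the deposited values are TPM. How TPM were derived, the annotation and the handling of strand and of multi-mapped reads are not given in the sources used here. Sequencing depth cannot be read from TPM and is unknown here. The table held 23847 rows, and 488 rows that repeat a symbol were summed.

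In control replicate 2, the values of all 13 Taar genes above 0 equalled those of replicate 1, against 0 other genes. They were set to missing. Genes reaching 1 TPM in 7 or more of the 16 Taar5-line libraries were fitted on log2(TPM + 1) with limma 3.58.1 in R 4.3.3 (eBayes with a trend, Benjamini-Hochberg adjustment over all genes, threshold 0.05). The count model of the study's methods could not be used on TPM. Members below the filter were taken from the fit without it. This fit was first tested on simulated data. Correlations used exact two-sided permutation of the pairings (Python 3.11.15). Of the symbols, 92.9% were found in GENCODE M21. RefSeq gave the promoter stretches, and all 5 members matched there by synonym.

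Members and lists were chosen with earlier results of these data known. Genes were named by rule: all members, called list genes or else the 2 with the highest mean TPM, and the 5 genes most like Fam19a4 and Fam19a5. Alternatives were a pseudocount of 0.1, other filters, no trend, quantile normalization, rescaling of TPM after receptor genes were removed, the replicate block, 10 controls, and leaving out libraries. Results of 1 partner gene and 1 marker gene are not reported here.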

Additional observations from a re-analysis of the deposited data

Results flagged for a closer look

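Of 7 groups of member values checked, 4 had a library far from the others, against 0.35 at an assumed rate of 1 in 20. Values with many zeros meet this criterion easily, so that rate does not hold for them and no excess is read. Fam19a5 was 117 TPM in control replicate 2, where the other controls reached 5.52 TPM. Fam19a5 was 2.18 TPM in Taar5+ replicate 5, where the others reached 0.608 TPM. Fam19a2 was 0.12 TPM in Taar5+ replicate 5 and listed at 0 in the other 6. Fam19a1 was 1.76 TPM in control replicate 5, where the others reached 0.182 TPM. Taar5+ replicate 5 had the most genes above 0 of its group (17653), and control replicate 2 the fewest of all controls (5891).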

How the results depend on the processing

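The log2 difference of Fam19a4 kept its sign under every alternative run, from 3.44 to 4.64. Fam19a4 was chosen on this contrast, so nothing is read from its kept sign. The log2 difference of Fam19a5 also kept its sign, from -2.52 to -0.70, without passing the threshold (adjusted p from 0.373 to 0.950 in limma). Fam19a1 turned to 0.0366 with quantile normalization and to 0.0686 without control replicate 5 (range with libraries left out -0.143 to 0.0686). Fam19a2 turned to -0.0159 with quantile normalization and to -0.0251 with 10 controls. The number of all genes called, 21, was 36 with quantile normalization, 12 with the replicate block and 11 with TPM rescaled without receptor genes. Receptor genes were absent from the rescaled fit and could not be called there, so 11 and 21 cover different sets of genes. When single libraries were left out, the number ran from 16 to 148 (148 without control replicate 2, 66 without Taar5+ replicate 5). It was 337 without both of these, where 1 chemokine gene was called. In the replicate block the Fam19a4 difference was 3.55. The deviations of same-numbered samples had correlations from -0.00617 to 0.275 over genes, above 0.1 in 5 of 7 pairs but not in all, and the labels name no shared source, so the numbers were not taken as pairs. Of the Taar5+ libraries, 3 of 7 correlated best with the control of their own number. The 2 correlations of Fam19a4 within Taar5+ cells no longer passed without the 2 farthest libraries (r = 0.048 and -0.67). How far the smaller set of genes accounts for the 11 was not examined, and the cause of the other shifts was not tested. Fam19a3 was listed at 0 in all 16 Taar5-line libraries, so no fit of those libraries alone gave a value for it. The alternative with 10 controls adds the Taar6-line control, where Fam19a3 was at 0.0958 TPM, and its difference there is not given. Unknown depth limits every statement on values listed at 0.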
